A study of Equus caballus with 3 samples.

Results

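The genes described here are 10 effectors through which mesenchymal stromal cells (MSCs) are known to act on immune cells: *PTGS2*, *PTGES*, *IDO1*, *HGF*, *TNFAIP6*, *LGALS1*, *LGALS3*, *IL6*, *NOS2* and *LIF*. They were picked by name, by a rule that uses no measured value, with earlier results of these data known. All 10 had a row among the 29927 gene names of the 3 matrices, 7 had at least 1 unique molecular identifier (UMI, a tag that marks 1 captured transcript) in every source, and *NOS2* had none in any. Droplet single-cell RNA sequencing (scRNA-seq) with a 3′ end protocol had been run on passaged MSC cultures of the same healthy warmblood mare, 10 years of age, grown from fat (adipose tissue, AT), from marrow (bone marrow, BM) or from blood (peripheral blood, PB). The labels name no treatment or genetic change, and a group is 1 library of 1 culture. Groups follow the sample titles, since the source name given to GEO reads blood mononuclear cells for all of them.

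MSCs restrain T cells and macrophages largely through what they secrete or catabolize. Prostaglandin E2 is made from arachidonic acid by cyclooxygenase-2 (*PTGS2*) and a terminal synthase (*PTGES*), IDO1 degrades tryptophan to kynurenine and NOS2 makes nitric oxide. HGF signals through the receptor MET, TSG-6 (*TNFAIP6*) binds hyaluronan and tempers leukocyte recruitment, galectins bind glycans on leukocytes, and IL-6 and LIF signal through gp130. Several of these genes, IDO1 and NOS2 above all, are known to be induced in MSCs by interferon gamma, tumour necrosis factor or interleukin 1, and which of the latter enzymes is used differs between species.

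Cell barcodes were kept if they held 2500 to 15000 UMIs, with no more than 3% of them mitochondrial, which left 5403 AT-, 5580 BM- and 5318 PB-derived MSCs with median depths of 6874.5 to 7750 UMIs and 39980656 to 41622445 UMIs per source. Levels are given in CPM, the UMIs of a gene summed over the kept cells per 1000000 UMIs of all genes in those cells. Each transcript is tagged once at its 3′ end, so CPM is not scaled by length. With 1 library per source there was no replicate error and no test, a difference between sources cannot be told apart from a difference between libraries, and the 95% intervals (exact Poisson for CPM, exact Clopper-Pearson for shares of cells) cover counting error only. All 10 stromal markers, led by *VIM* and *COL1A2*, had at least 10 CPM in every source. Of 11 haematopoietic and macrophage markers with a row, only *CD68* reached 10 CPM, and only in BM (11.03 CPM), and the list summed to 7.33, 11.48 and 5.36 CPM in AT, BM and PB, with *PTPRC*, *CD163* and *MS4A1* at 0. Endothelial markers summed to at most 0.192 CPM, with *KDR* and *TIE1* at 0, and of the epithelial markers *KRT8* alone reached 10 CPM (45.4, 1.22 and 0.0240 CPM), with *EPCAM* and *KRT14* at 0. The 7 smooth muscle and pericyte markers summed to 1043, 960 and 671 CPM, led by *ACTA2*. No cell type that should lack the effector genes was found in these cultures against which free RNA in the droplets could be read. All 5318 kept PB barcodes also occurred in the AT library, 5279 of them there under 2500 UMIs (median 827 UMIs), and 37 barcodes were kept in both. AT and BM shared 42 kept barcodes, and BM and PB shared 38.

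The effectors spanned a wide range of expression. *LGALS1* was among the most abundant transcripts of the cells, the 14th, 7th and 3rd of all detected genes in AT, BM and PB. *LGALS3* and *PTGES* were found in most or many cells, whereas *PTGS2*, *TNFAIP6* and *HGF* stayed below 10 CPM. *LIF*, *IL6* and *IDO1* were at or close to the floor of detection, and *NOS2* was not detected.

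**Figure D1:**
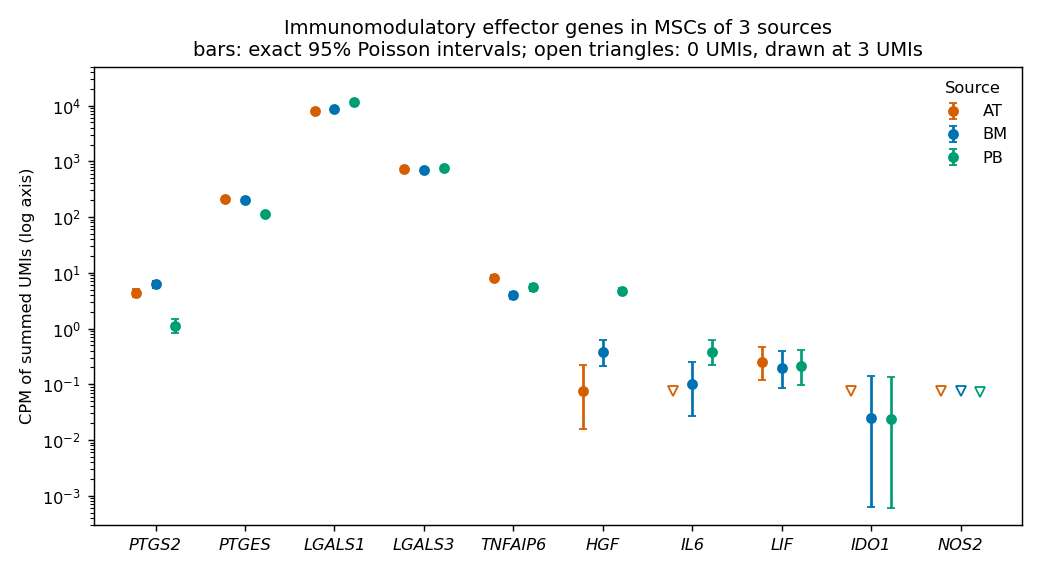
Levels of the 10 genes (log axis, CPM of summed UMIs) in AT-, BM- and PB-derived MSCs, with exact 95% Poisson intervals; open triangles stand for 0 UMIs and are drawn at the floor of 3 UMIs. *LGALS1* lies at 7946 to 11827 CPM and *NOS2* at 0 in all 3 sources, and *HGF* has 0.0750 CPM in AT and 4.73 CPM in PB.

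Of the 10 genes, 3 (*PTGES*, *LGALS1* and *LGALS3*) reached 10 CPM in a source, the limit set for counting genes that differ. None of the 3 differed by 2-fold or more (a difference of log2(CPM + 1) of at least 1) in any pair of sources, where 11.1% of 7211 genes did so between AT and BM, 9.98% between AT and PB and 8.31% between BM and PB. By direction, 2.47% of genes were higher in AT and 8.61% in BM, 4.04% in AT and 5.95% in PB, and 6.09% in BM and 2.22% in PB. The median differences of these 3 genes (AT minus BM, AT minus PB and BM minus PB) were 0.07, -0.02 and -0.09, beside -0.24, -0.03 and 0.20 over all 7211 genes. Without the limit, 9 members had a UMI, and *PTGS2* and *HGF* were past 2-fold between PB and each other source, *PTGS2* higher in AT and in BM than in PB, and *HGF* higher in PB than in either. The percentages over all 19625 genes with a UMI were then 7.03%, 6.68% and 5.28% for AT against BM, AT against PB and BM against PB. By direction they were 1.73% higher in AT and 5.3% in BM, 2.96% in AT and 3.71% in PB, and 3.8% in BM and 1.49% in PB. Scaling by TMM factors in place of totals moved the median over all genes from -0.24 to 0.04 between AT and BM and from 0.20 to -0.03 between BM and PB, so smaller differences are also given on that scale where their sign changes.

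The 2 enzymes of prostaglandin E2 synthesis were present at very different levels, and both were lowest in PB-derived MSCs. For *PTGS2*, the inducible cyclooxygenase, the sums were 174 (AT), 249 (BM) and 47 (PB) UMIs, which corresponds to 4.35 CPM (3.73 to 5.05), 6.19 CPM (5.44 to 7.01) and 1.13 CPM (0.830 to 1.502). The intervals of the 3 sources did not overlap, but they treat UMIs as independent, and *PTGS2* UMIs lay together in few cells. *PTGS2* was 5.48-fold (3.999 to 7.65) higher in BM and 3.85-fold (2.78 to 5.44) higher in AT than in PB, and 1.42-fold (1.17 to 1.74) higher in BM than in AT. The size of that last difference changed with the processing. On the log2(CPM + 1) scale AT minus BM was -0.43, and it ranged over -0.61 to -0.19 between the alternatives run. The share of cells with a *PTGS2* UMI was 2.59% (2.18 to 3.05) in AT, 3.03% (2.59 to 3.51) in BM and 0.752% (0.538 to 1.02) in PB. Counted by cells, the intervals of AT and BM thus overlapped, and that of PB lay below both. Once each cell was thinned to 2500 UMIs, the shares were 1.04%, 1.59% and 0.244%, in the same order.

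Transcripts of *PTGS2* were concentrated in few cells. A single common level would have given a UMI in 3.16% of AT- and 4.35% of BM-derived MSCs, above the shares observed. The 54 AT cells with the most *PTGS2* UMIs, 1% of the cells, held 88 of the 174 UMIs, and the 55 top BM cells held 135 of the 249. Such a part is sizeable for any gene this sparse (61 of 197 UMIs for *HGF* in PB). The coefficient of variation of *PTGS2* beyond counting was 5.76 in AT and 5.73 in BM. The highest single cell carried 13 UMIs (AT), 10 (BM) or 3 (PB). The next held 4 in AT and 9 in BM, so the AT coefficient leans on 1 cell. It was not recomputed without that cell. The AT cell with 13 was called G1 and also held 4 *TNFAIP6* UMIs.

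*PTGES*, the synthase that acts on the product of cyclooxygenase, was measured at 211 CPM (206 to 215) in AT, 201 CPM (196 to 205) in BM and 113 CPM (110.0 to 116) in PB. Levels in AT and BM lay close together, 0.07 apart on the log2(CPM + 1) scale, with the higher source changing among G1 cells (-0.01) and the distance growing to 0.35 with TMM factors. PB was lower than both, by 0.89 against AT (1.86-fold) and by 0.82 against BM (1.77-fold). Between the alternatives run, these differences ranged over 0.82 to 0.94 against AT and 0.59 to 0.87 against BM. Of the 7211 genes, 11.45% differed more than *PTGES* between AT and PB and 11.8% did so between BM and PB. A UMI was found in 69.8%, 64.2% and 51.1% of AT-, BM- and PB-derived MSCs, and in 38.4%, 36.7% and 22.9% of thinned cells.

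Most genes around these enzymes were below 10 CPM. Of 13 genes of prostaglandin E2 synthesis, transport and response, both enzymes included, all had a row, 4 reached 10 CPM and 0 of these 4 were past 2-fold in any pair. With 8.31% to 11.1% of all genes tested past it, a count of 0 among so few is near the background. The cytosolic synthase *PTGES3* was at 250, 342 and 302 CPM in AT, BM and PB, and the phospholipase *PLA2G4A*, which releases arachidonic acid, at 13.5, 19.5 and 12.3 CPM. The constitutive cyclooxygenase *PTGS1* stayed at 0.200 to 0.240 CPM. Below 10 CPM, and named after its values were seen, the receptor *PTGER4* was at 0.150 CPM in AT (6 UMIs), 5.39 CPM in BM (217 UMIs) and 0.649 CPM in PB (27 UMIs).

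Cells with a UMI of *PTGS2* also had more transcripts of a few secreted factors. Among 7144 genes in AT and 7754 in BM with a UMI in at least 5% of cells, *IL11*, a gp130 cytokine, differed most between cells with and without *PTGS2* in both sources. It was at 66.4 CPM (52.1 to 83.3) in the 140 AT cells with *PTGS2* and at 14.6 CPM in the others, and at 124 CPM (104 to 145) in the 169 BM cells with *PTGS2* and at 48.1 CPM in the others. In AT the chemokine *CCL2* followed (51.1 against 15.3 CPM), then *SERPINB2* (71.7 against 25.4 CPM). In BM these were *SPP1* (45.4 against 15.7 CPM) and *RGS2* (39.5 against 13.5 CPM). These genes were picked as the largest differences among all those ranked, so their values carry that selection. Cells with *PTGS2* were also deeper in AT (median 8034.5 against 7272 UMIs) but not in BM (6635 against 6879 UMIs), and the part of depth was not tested. This comparison was added after the members' values were seen. The 40 PB cells with *PTGS2* were too few for it.

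*HGF*, encoding the ligand of MET, was found mainly in PB-derived MSCs. There, 197 UMIs in 189 cells gave 4.73 CPM (4.10 to 5.44), against 15 UMIs in BM, 0.373 CPM (0.209 to 0.615), and 3 UMIs in AT, 0.0750 CPM (0.0155 to 0.219). PB was 12.7-fold (7.51 to 23.1) higher than BM and 63.1-fold (21.3 to 308) higher than AT. The ratio to AT rests on 3 UMIs there. On the log2(CPM + 1) scale AT minus PB was -2.41, and it ranged over -2.82 to -1.92 between the alternatives run. BM was 4.97-fold (1.41 to 26.8) higher than AT, a ratio that rests on 3 UMIs in AT and whose interval covers counting error only. Its direction turned when all barcodes with at least 500 UMIs were kept (AT minus BM 0.14 in place of -0.35 on the log2(CPM + 1) scale). Shares of cells with a UMI were 0.0555% in AT, 0.269% in BM and 3.55% in PB.

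Within PB, 189 of 5318 cells had a UMI of *HGF*, and the 53 cells with the most, 1% of the cells, held 61 of the 197 UMIs. A single common level would have given a UMI in 3.63% of cells, close to the 3.55% observed. At counts this sparse these shares can lie close even where levels differ among cells, so their closeness does not show an even level. The coefficient of variation beyond counting was 1.05, no cell held more than 2 UMIs, and every one of the 10 PB clusters had at least 1. The barcodes shared with the AT library bear on this gene directly. Of the AT barcodes under 2500 UMIs, which were not kept, 5279 were barcodes of kept PB cells and held 4428290 UMIs. The other 876 held 1100588 UMIs, and on them lay 1 of the 22 *HGF* UMIs (0.909 CPM, 0.0230 to 5.06). The other 21 lay on the barcodes of kept PB cells, at 4.74 CPM (2.94 to 7.25, an overlapping interval) beside 4.73 CPM in the PB library. Of the other members these barcodes held 487 UMIs of *PTGES* (110 CPM, 100.4 to 120, beside 211 CPM in AT and 113 CPM in PB). They held 49209 of *LGALS1* (11112 CPM, 11014 to 11211, beside 7946 CPM in AT and 11827 CPM in PB) and 3263 of *LGALS3* (737 CPM, 712 to 763, beside 739 and 748 CPM). Scarcer were 4 UMIs of *IL6* (0.903 CPM, 0.246 to 2.31), which the kept AT cells lacked, 4 of *PTGS2* (0.903 CPM), 5 of *LIF* (1.13 CPM, 0.367 to 2.63, beside 0.250 CPM in AT and 0.216 CPM in PB) and 37 of *TNFAIP6* (8.36 CPM, 5.88 to 11.52, beside 8.08 CPM in AT and 5.50 CPM in PB). The other 876 AT barcodes under 2500 UMIs were at 149 CPM (127 to 174) of *PTGES*, 8671 CPM of *LGALS1* and 582 CPM of *LGALS3*. The origin of the UMIs on either set of barcodes was not tested. Counting all AT barcodes with at least 500 UMIs turned the difference between AT and BM from -0.35 to 0.14, and without the AT barcodes kept in another library it was -0.38.

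Of 10 genes listed for HGF and MET, 4 reached 10 CPM, and the plasminogen activator *PLAU* (85.1, 169 and 89.3 CPM) and its receptor *PLAUR* (44.7, 101 and 110 CPM) led, in the order AT, BM and PB. *PLAT*, a further plasminogen activator, was at 41.4, 56.7 and 10.9 CPM, more than 2-fold lower in PB than in AT and in BM, and *PLAUR* was more than 2-fold lower in AT than in BM and in PB. The protease inhibitor *SPINT2* (26.1, 13.6 and 29.2 CPM) was past 2-fold higher in PB than in BM. Of all genes tested, 8.61% and 5.95% were past 2-fold lower in AT than in BM and in PB, 4.04% and 6.09% were lower in PB than in AT and in BM, and 2.22% were higher in PB than in BM. *MET*, the receptor, was lowest where its ligand was highest, with 8.83 CPM in AT, 8.05 CPM in BM and 3.44 CPM in PB.

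*TNFAIP6*, which encodes the hyaluronan-binding protein TSG-6, was detected in every source and highest in AT. The sums were 323 (AT), 159 (BM) and 229 (PB) UMIs, or 8.08 CPM (7.22 to 9.01), 3.95 CPM (3.36 to 4.62) and 5.50 CPM (4.81 to 6.26). The 3 intervals did not overlap. AT was 2.04-fold (1.69 to 2.49) higher than BM and 1.47-fold (1.24 to 1.75) higher than PB, and PB was 1.39-fold (1.13 to 1.72) higher than BM. That last difference changed most with the cells compared: among G1 cells, BM was at 2.38 CPM and PB at 5.69 CPM (4.79 to 6.70), or -0.99 for BM minus PB on the log2 scale in place of -0.39. Cells with a UMI made up 5.42%, 2.56% and 3.69% of the AT, BM and PB cells, and 1.74%, 0.789% and 1.17% after thinning, which kept the order.

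Of 10 genes of TSG-6 and hyaluronan, 7 had a row and 4 reached 10 CPM. Past 2-fold, 2 were higher and 1 lower in AT than in BM, 2 higher and 1 lower in AT than in PB, and 2 higher in BM than in PB. Of all features, 2.47% were higher and 8.61% lower in AT than in BM, 4.04% higher and 5.95% lower in AT than in PB, and 6.09% higher in BM than in PB. The hyaluronan receptor *CD44* was at 691, 285 and 522 CPM in AT, BM and PB and the hyaluronan-binding proteoglycan *VCAN* at 115, 120 and 31.2 CPM. The synthase *HAS2* had the opposite order to *CEMIP*, which takes part in breaking hyaluronan down: 6.03, 28.6 and 32.0 CPM against 12.8, 4.18 and 0.865 CPM.

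**Figure D2:**
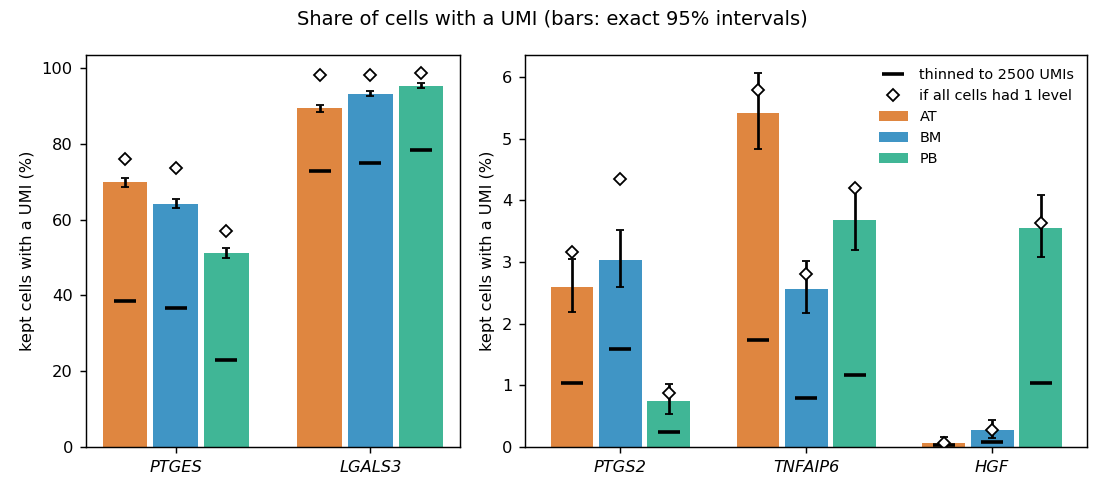
Share of kept cells with a UMI (percent of cells, with exact 95% Clopper-Pearson intervals) for *PTGES* and *LGALS3* (left) and *PTGS2*, *TNFAIP6* and *HGF* (right), with the share after thinning to 2500 UMIs per cell (black lines) and the share that 1 common level would give (diamonds). *PTGS2* in BM lies below its diamond (3.03% against 4.35%), and *HGF* in PB lies close to it (3.55% against 3.63%). At counts this sparse a share close to its diamond does not show an even level.

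The galectins were the abundant members. *LGALS1*, encoding galectin-1, was present in 100% of cells of every source, at 7946 CPM (7918 to 7973) in AT, 8829 CPM (8800 to 8858) in BM and 11827 CPM (11794 to 11860) in PB. PB was 1.49-fold higher than AT and 1.34-fold higher than BM, beyond counting error, and this direction held under each alternative scaling and cell filter tried. AT was 0.15 lower than BM on the log2(CPM + 1) scale, but 0.13 higher with TMM factors. In single cells, the level per 10000 UMIs had a median of 78.9 in AT (5th to 95th percentile 42.2 to 123), 89.4 in BM (52.9 to 129) and 120 in PB (76.7 to 162), so that the distributions overlapped broadly.

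*LGALS3*, encoding galectin-3, was nearly level between sources, with 739 CPM (730 to 747) in AT, 704 CPM (695 to 712) in BM and 748 CPM (739 to 756) in PB. The intervals of AT and PB overlapped, and 95.8% of the 7211 genes differed more than *LGALS3* did between them. With TMM factors, AT was 0.35 and PB 0.32 above BM on the log2(CPM + 1) scale, in place of 0.07 and 0.09. It was less even among cells than *LGALS1*. Cells without a UMI made up 10.6% of AT, 6.76% of BM and 4.63% of PB, where 1 common level would have given a UMI in 98.2%, 98.1% and 98.6% of cells. These cells were shallower (median 5415 UMIs against 7406.5 in AT, 4901 against 7009 in BM and 4173.5 against 7821 in PB). At 2500 UMIs per cell, the share with a UMI was 72.9%, 75.04% and 78.4% in AT, BM and PB. The variation beyond counting, as a coefficient of variation over cells, was 0.716, 0.582 and 0.585 for *LGALS3* and 0.267, 0.217 and 0.191 for *LGALS1*.

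**Figure D3:**
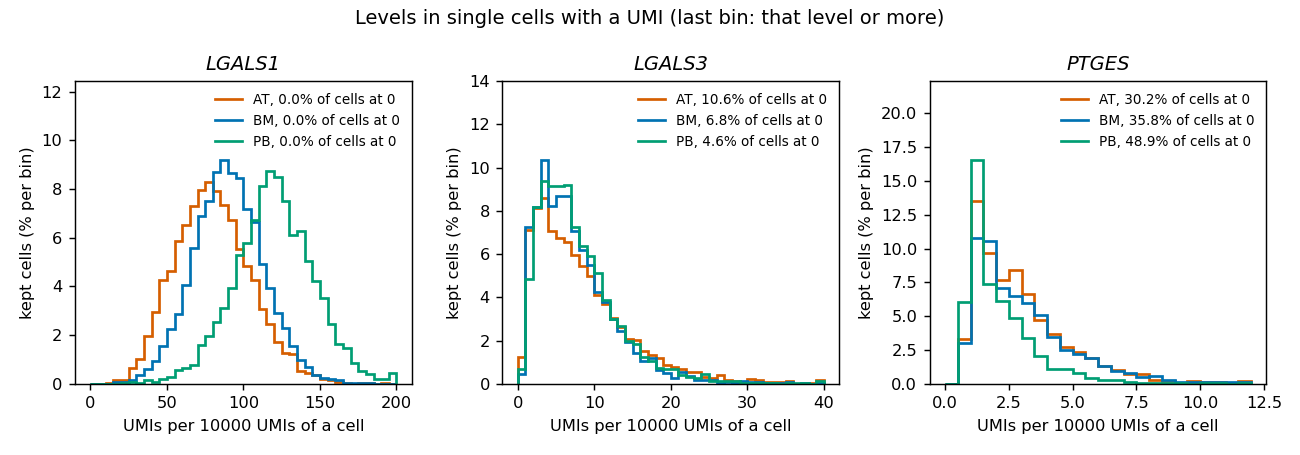
Distribution over single cells of *LGALS1*, *LGALS3* and *PTGES* (x axis, UMIs per 10000 UMIs of a cell; y axis, percent of kept cells per bin) in AT-, BM- and PB-derived MSCs, with the percent of cells at 0 in the legends. The PB curve of *LGALS1* is shifted to the right (median 120 against 78.9 and 89.4), whereas the curves of *LGALS3* lie close together and the cells at 0 range from 4.63% to 10.6%.

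Of the other galectin genes listed, *LGALS8* (9.03, 10.9 and 11.6 CPM) and *LGALSL* (6.43, 5.99 and 11.03 CPM) also reached 10 CPM in a source, and 0 of the 4 tested were past 2-fold, near the 8.31% to 11.1% of all genes tested. The genes whose levels over cells were most like *LGALS1* included *VIM* in first place in each source (Pearson r of 0.50, 0.47 and 0.53 over the 5403 AT, 5580 BM and 5318 PB cells, and 0.41, 0.38 and 0.42 after thinning). Next were *S100A4* and *LMNA* in AT, *LUM* and *EEF1A1* in BM, and *ACTG1* and *LUM* in PB (0.32 to 0.35). *LGALS3* was most like *IGFBP6* (0.40), *S100A4* (0.37) and *S100A10* (0.36) in AT, *ANXA2* (0.26), *TXN* (0.25) and *S100A4* (0.24) in BM, and *S100A4* (0.40), *B2M* (0.39) and *DCN* (0.39) in PB. After thinning, *S100A4* (0.26) led over *IGFBP6* (0.23) in AT and *TXN* (0.15) over *ANXA2* (0.14) in BM. In PB *S100A4* stayed first (0.26), and *B2M* was no longer among the first 3. Cells of a source share a library and differ in depth, so these correlations are descriptions. For *PTGES* the highest values were 0.21 (*PFN1*, then *CCL26* and *MYL6* in AT), 0.16 (*LDHA*, then *MFAP2* and *BNIP3* in BM) and 0.20 (*SOD2*, then *CCND1* and *PFN1* in PB), and for *TNFAIP6* in AT at most 0.08, too weak in such sparse counts to read. With cells thinned to 2500 UMIs, which left 2559 of 5140 genes to compare in AT, the *PTGES* values were 0.10 with *PFN1* in AT, 0.09 with *LDHA* in BM and 0.12 with *SOD2* in PB, and *CCL26* and *MYL6* were not among the first 3 in AT. *PFN1* was then behind *ACTG2* (0.11) in AT, and *MFAP2* (0.10) led in BM. *BNIP3* in BM and *CCND1* and *PFN1* in PB also left the first 3.

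Of the gp130 cytokines, IL-6 and LIF transcripts were scarce. *IL6* had 0 UMIs in AT (exact upper limit 0.0923 CPM), 4 UMIs in 3 BM cells (0.0994 CPM) and 16 UMIs in 9 PB cells (0.384 CPM, 0.220 to 0.624). The counting intervals of AT and PB did not overlap and those of BM and PB did, but 7 of the 16 UMIs came from 1 cell. *LIF* was counted 10, 8 and 9 times in AT, BM and PB (0.250, 0.199 and 0.216 CPM), with overlapping intervals and never more than 1 UMI in a cell.

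The IL-6 family beyond them was in part well expressed. The shared receptor chain *IL6ST* (gp130) was at 157, 155 and 85.7 CPM in AT, BM and PB, the cytokine *IL11* at 16.0, 50.3 and 16.1 CPM and the oncostatin M receptor *OSMR* at 4.402, 24.5 and 19.9 CPM. Of 15 listed genes, 13 had a row and 5 reached 10 CPM, and 3 of these 5 (*IL11*, *OSMR* and *SOCS3*) were past 2-fold higher in BM than in AT, *OSMR* was so in PB over AT and *IL11* in BM over PB, where the shares of all features were 8.61%, 5.95% and 6.09%. The ligand-binding chain *IL6R* stayed at 0.225 CPM or below in all 3 sources.

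*IDO1* and *NOS2*, a pair of enzymes known to be induced in MSCs by inflammatory cytokines, were not detectable above the floor. *IDO1* had 0 UMIs in AT and 1 in each of BM and PB. *NOS2* had 0 UMIs in 39980656, 40239295 and 41622445 UMIs of AT, BM and PB, where the floor of 3 UMIs stands at 0.0750, 0.0746 and 0.0721 CPM and at 0.0555%, 0.0538% and 0.0564% of cells with a UMI. The matching cytokines *IFNG*, *TNF* and *IL1B* also had 0 UMIs in each source. Receptors for tumour necrosis factor and interferon gamma were detected, *IFNGR2* in AT only at a low level (1.83 CPM). The tumour necrosis factor receptor *TNFRSF1A* was at 71.0, 68.1 and 81.7 CPM in AT, BM and PB, and the interferon gamma receptor chains *IFNGR1* and *IFNGR2* at 49.5, 30.6 and 31.2 CPM and at 1.83, 23.1 and 15.4 CPM. Of the transcription factors, *CEBPB* was at 30.5, 39.4 and 55.4 CPM and *CEBPD* at 43.0, 8.18 and 27.4 CPM. Of the 24 genes listed for these cytokines, their receptors and NF-kB, 11 reached 10 CPM. Of these, 1 was past 2-fold in each direction between AT and BM, 3 were higher in PB than in AT and 2 higher in PB than in BM, with 0 the other way. Of all features, 2.47% were higher and 8.61% lower in AT than in BM, and 5.95% and 2.22% were higher in PB than in AT and in BM.

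Few genes around *IDO1* and *NOS2* reached 10 CPM. In the tryptophan and kynurenine list of 11 genes, 10 had a row, 3 reached 10 CPM (the transporter chains *SLC3A2* and *SLC7A5* and the aminotransferase *KYAT3*) and 0 were past 2-fold (8.31% to 11.1% of all genes tested), while *IDO2*, *KYNU* and *KMO* had 0 UMIs in all 3 sources. In the nitric oxide and arginine list of 10, 2 reached 10 CPM. These were the arginase *ARG2* (44.5, 43.7 and 31.3 CPM in AT, BM and PB) and *ASL* (15.7, 16.7 and 6.85 CPM), which was past 2-fold lower in PB than in AT and in BM, beside 4.04% and 6.09% of all genes tested. *GCH1* came next at 1.78 to 2.28 CPM.

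Among 15 other immunomodulators of MSCs, 13 had a row and 6 reached 10 CPM. Of these 6, 5 were past 2-fold higher in PB than in AT, 4 of which are given here (5.95% of all 7211 genes were higher in PB in that pair), 3 past 2-fold higher in BM than in AT (8.61% of all genes) and 2 past 2-fold higher in PB than in BM (2.22% of all genes), with 0 the other way in each pair. *TGFB3*, a transforming growth factor beta, was at 21.2 CPM in AT, 49.5 CPM in BM and 115 CPM in PB, *TGFB1* at 19.7, 34.0 and 73.7 CPM, *TGFB2* at 0.775, 10.46 and 11.3 CPM and *STC1*, encoding stanniocalcin-1, at 1.15, 12.3 and 7.59 CPM. *HMOX1*, the inducible haem oxygenase, was at 42.8, 46.8 and 40.9 CPM. Below 10 CPM, and named after its values were seen, the cytokine *IL33* was at 8.75 CPM in AT and at 0.0249 and 0.0481 CPM in BM and PB (1 and 2 UMIs). This list and the pathway lists above were drawn up with earlier results of these cells known.

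To describe variation within a source, cells were clustered without the 10 genes among the variable genes, which gave 7 AT, 8 BM and 10 PB clusters. The genes that made the clusters come from the same cells, so levels over clusters are descriptions, and clusters are named by number and leading genes. *LGALS3* varied more over clusters than *PTGES* or *LGALS1* in each source. In AT it ranged from 417 CPM (404 to 431) in cluster 0 (1125 cells, led by the contractile genes *DES*, *ACTG2* and *ACTA2*) to 1159 CPM (1134 to 1183) in cluster 1 (1019 cells, *SCARA5*, *MGP*, *IGFBP6*). *PTGES* had the opposite order in these clusters, with 274 CPM (263 to 285) in cluster 0, its highest, and 148 CPM (139 to 157) in cluster 1.

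The clusters highest in *LGALS3* in BM and PB both had *LAMP2*, *PIGK* and *PLTP* among their leading genes. In BM it was highest at 1342 CPM (1266 to 1421) in cluster 7 (97 cells, *LAMP2*, *PCOLCE*, *PIGK*), and in PB at 1482 CPM (1441 to 1525) in cluster 4 (378 cells, *PIGK*, *LAMP2*, *PLTP*). Elsewhere the BM clusters lay between 547 and 787 CPM. The lowest PB value, 397 CPM (379 to 417), was found in cluster 3 (403 cells, *CDK1*, *UHRF1*, *TOP2A*), where 94.5% of the cells were called S or G2M. *LGALS1* was lowest in the same PB cluster (9237 CPM, 9146 to 9328) and highest in cluster 8 (14999 CPM, 14761 to 15240; 143 cells, *NDUFA4L2*, *SFRP1*, *MGP*).

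*TNFAIP6* was concentrated in particular clusters of BM and PB. In BM, cluster 4 (648 cells, *CALCA*, *EMB*, *IGFBP5*, *HMX2*) held 84 of the 159 UMIs, 52.8% of them in 11.6% of the cells. Its level was 13.8 CPM (10.97 to 17.0), and that of all other BM cells together 2.20 CPM (1.73 to 2.75). In PB, clusters 4 (16.3 CPM, 12.2 to 21.3), 5 (15.3 CPM, 11.1 to 20.5; 376 cells, *CCL2*, *CCL7*, *SOD2*, *NFKBIA*) and 9 (25.9 CPM, 10.4 to 53.5, from 7 UMIs; 37 cells, *CXCL10*, *GBP5*, *ISG15*) lay above the other 7, which ranged from 2.27 to 5.40 CPM. In AT the clusters ranged from 4.03 CPM (2.49 to 6.16) to 12.1 CPM (8.84 to 16.1), the latter in cluster 6, all of whose 398 cells were called S or G2M. Cluster 2 (1002 cells) was close to it, at 11.2 CPM (8.82 to 14.02). Its cells called G1 were at 11.3 CPM and those called S or G2M at 11.2 CPM.

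Outside cluster 4, *TNFAIP6* in BM differed by less than counting error between cell cycle calls. Over all BM cells *TNFAIP6* was at 2.38 CPM (1.81 to 3.06) in cells called G1, 6.62 CPM (5.003 to 8.60) in S and 6.59 CPM (4.77 to 8.87) in G2M. In cluster 4, 90.1% of the cells were called S or G2M. Outside it, the level was 2.23 CPM (1.68 to 2.90) in G1 and 2.12 CPM (1.29 to 3.27) in S or G2M. Within it, the 584 cells called S or G2M had 14.3 CPM (11.3 to 17.8) and the 64 called G1 had 8.65 CPM (2.81 to 20.2), with overlapping intervals.

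The PB cells with a UMI of *TNFAIP6* carried more of several genes that led clusters 5, 9 and 4. *SOD2* was at 310 CPM (284 to 337) in the 196 cells with *TNFAIP6* and at 69.6 CPM in the others, *CCL7* at 211 against 80.2 CPM and *CCL2* at 1247 against 530 CPM, all leading genes of cluster 5. The interferon-inducible *GBP1*, a leading gene of cluster 9, was at 46.4 against 11.49 CPM, and *PIGK*, of cluster 4, at 146 against 73.0 CPM. In BM the leading genes of cluster 4 took these places, *HMX2* with 67.8 against 12.1 CPM and *EMB* with 74.1 against 17.0 CPM. In AT the first was *SERPINB2*, at 60.0 CPM in the 293 cells with *TNFAIP6* and 24.5 CPM in the others. The PB and BM genes named led the clusters where *TNFAIP6* was concentrated, so the comparison restates that pattern in the same cells. All were picked from the largest differences among the genes ranked, and their values carry that selection.

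**Figure D4:**
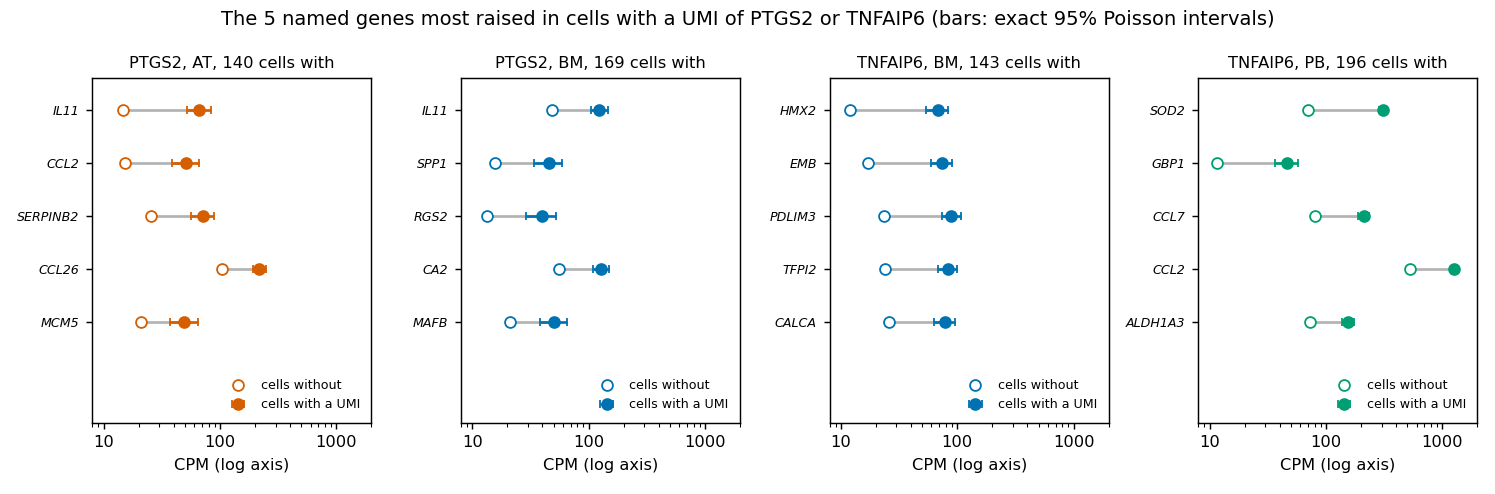
The 5 genes with a symbol that differed most between cells with a UMI of *PTGS2* (AT, BM) or *TNFAIP6* (BM, PB) and the other cells of the source (x axis, CPM, log axis; filled points with exact 95% Poisson intervals, cells with a UMI; open points, cells without). *IL11* leads for *PTGS2* in both AT (66.4 against 14.6 CPM) and BM (124 against 48.1 CPM), whereas *SOD2* leads for *TNFAIP6* in PB (310 against 69.6 CPM).

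*PTGES* and *PTGS2* also varied over clusters. *PTGES* was highest in PB cluster 5, at 201 CPM (185 to 218), close to the level of BM as a whole, and lowest in cluster 2, at 87.0 CPM (79.9 to 94.6). In BM it was highest in cluster 4, at 276 CPM (263 to 289). *PTGS2* in PB was at 4.23 CPM (2.51 to 6.68) in cluster 3 and 3.47 CPM (1.66 to 6.38) in cluster 5, which together held 28 of its 47 UMIs. In BM it was at 9.83 CPM (7.87 to 12.1) in cluster 0 (1356 cells, *DPT*, *ISLR*, *ALPL*) and 2.62 CPM (1.497 to 4.25) in cluster 4. Its highest cluster stood 1.59 times above the BM library as a whole, and 3.01 times when cells were clustered without regressing out the cell cycle. By cell cycle call it was at 7.92 CPM (6.86 to 9.10) in BM cells in G1 and 2.30 CPM (1.29 to 3.79) in G2M, and at 4.84 CPM (4.003 to 5.81) and 2.45 CPM (1.37 to 4.04) in AT. The G1 and G2M counting intervals were apart in BM and overlapped in AT. They also overlapped in PB, where G1 cells were at 1.16 CPM (0.778 to 1.67) and G2M cells at 1.38 CPM (0.629 to 2.61). These intervals treat UMIs as independent, and the BM cells with 10, 9 and 8 *PTGS2* UMIs were all called G1. Counted by cells, 3.49% of the BM cells in G1 (131 cells) and 1.79% of those in G2M (14 cells) had a *PTGS2* UMI. *LGALS3* was also lower in G2M than in G1, at 605 against 774 CPM in AT, 661 against 709 CPM in BM and 574 against 793 CPM in PB.

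**Figure D5:**
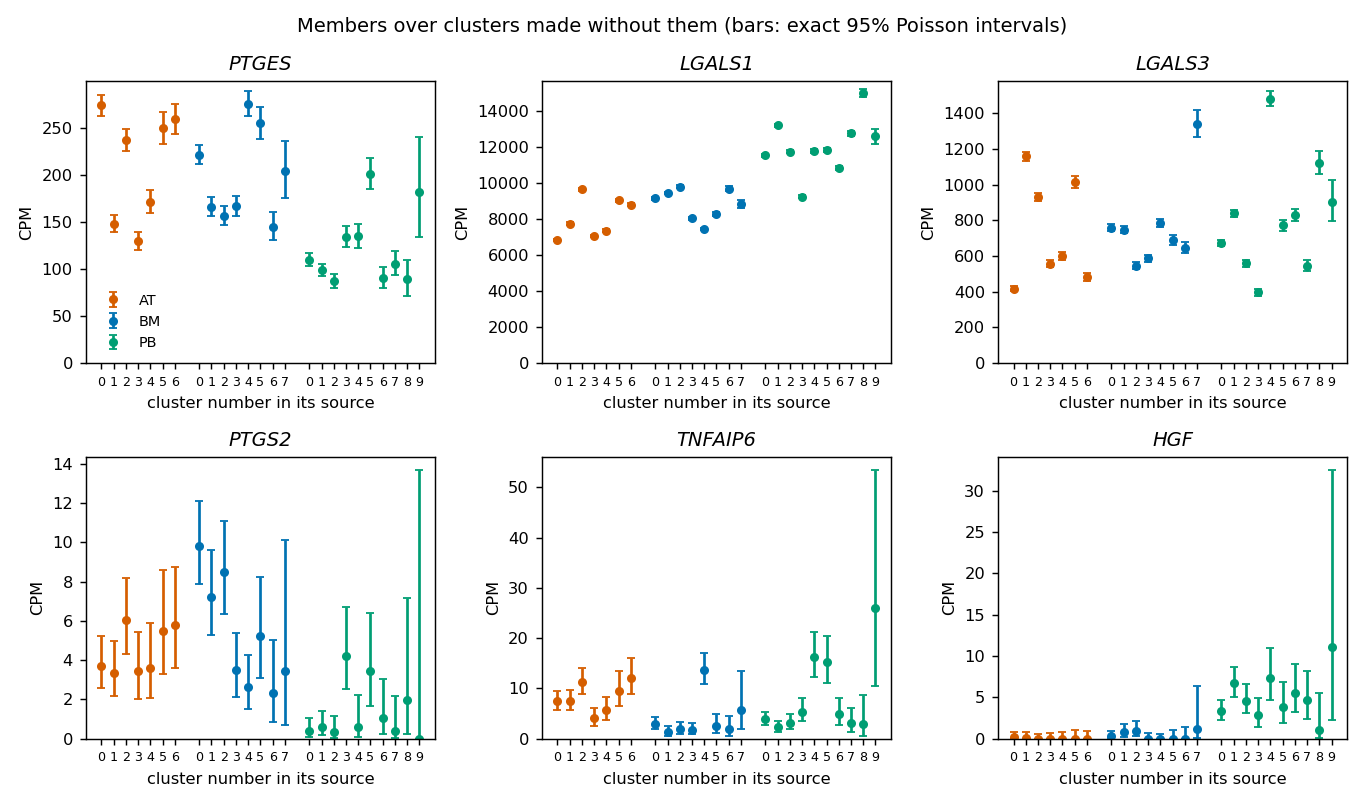
Levels of 6 members (y axis, CPM from 0) in the clusters of AT (7), BM (8) and PB (10), made without these genes, with exact 95% Poisson intervals. *TNFAIP6* stands out in BM cluster 4 (13.8 CPM) and PB clusters 4, 5 and 9 (15.3 to 25.9 CPM), and *LGALS3* in BM cluster 7 (1342 CPM) and PB cluster 4 (1482 CPM).

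The few *IL6* transcripts of PB lay in 3 of the 10 clusters, 4 UMIs in cluster 3, 7 in cluster 4 and 5 in cluster 5. The 7 in cluster 4 were those of the single cell named above, while the 5 in cluster 5 came from 5 cells. The 1 *IDO1* UMI of PB was in cluster 9, the 37 cells led by *CXCL10*, *GBP5* and *ISG15*. *HGF* in PB was at 6.68 CPM (5.05 to 8.68) in cluster 1 and 7.36 CPM (4.72 to 10.95) in cluster 4, against 3.36 CPM (2.31 to 4.72) in cluster 0, the largest. Its extremes rested on few counts, 3 UMIs in cluster 9 (11.12 CPM, 2.29 to 32.5) and 1 in cluster 8 (0.992 CPM, 0.0251 to 5.53), and the ratio of the highest cluster to the whole source ranged over 1.68 to 2.84 between cluster settings.

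Over cells, Pearson r between members with at least 20 UMIs was at most 0.113 in AT, 0.0850 in BM and 0.178 in PB (*LGALS1* with *LGALS3* in AT and PB, *PTGES* with *LGALS3* in BM), which is given as a description only. Cells with *TNFAIP6* had more *PTGES* than the others in PB (173 CPM, 154 to 194, against 111 CPM) and BM (248 CPM, 222 to 277, against 199 CPM), whereas in AT the intervals overlapped (220 CPM, 202 to 239, against 210 CPM, 206 to 215). They also had more *LGALS3* in each source, with counting intervals apart. These intervals, for *PTGES* too, treat UMIs as independent and leave out the spread over cells. For *LGALS3* that spread, as a coefficient of variation beyond counting, was 0.716 in AT, 0.582 in BM and 0.585 in PB. Pearson r of *TNFAIP6* with *LGALS3* was only 0.03 in AT, 0.03 in BM and 0.07 in PB. Its level was 951 CPM (906 to 998) against 739 CPM in PB and 769 CPM (722 to 819) against 701 CPM (693 to 710) in BM. In AT it was 785 CPM (750 to 821) against 736 CPM (727 to 744). Cells with *TNFAIP6* were deeper (median 8744.5 against 7717.5 UMIs in PB, 8501 against 6833 in BM and 7956 against 7246 in AT). Clusters high in *TNFAIP6* were also the highest in *PTGES* (BM cluster 4 and PB cluster 5) or in *LGALS3* (PB cluster 4). The parts of depth and of cluster in these differences were not tested.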

How the data were processed

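Cultured MSCs of 1 mare had been sequenced as single cells, 1 library each for AT, BM and PB. The authors assigned and mapped reads to EquCab3.0 with Cell Ranger and counted UMIs per gene with ESAT, which also takes reads just past annotated 3′ ends and leaves out overlapping exons of opposite strands. The deposited values are raw UMI counts for each gene in each cell barcode, all whole numbers and not normalized. Sources were taken from the sample titles. The limits on barcodes (2500 and 15000 UMIs, 3% on chromosome MT) follow the methods. Per the methods, putative multiplets were removed with DoubletDetection before downstream analysis. Whether the deposited matrices still hold them is not given in the sources used here, and no doublets were removed beyond the upper UMI limit.

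Levels are CPM of UMIs summed over kept cells, and differences are of log2(CPM + 1), which understate those of low genes. Genes at 10 CPM or more in at least 1 source were counted for 2-fold differences. Folds are ratios of CPM, and a fold against a source at 0 is a lower bound against 3 UMIs over that source. The methods' edgeR test on single cells treats cells as replicates and was not used. R 4.3.3 with Seurat 5.3.0 gave cell cycle calls from log-normalized counts. Clusters were made with the same tools on sctransform 0.4.2 residuals (3000 variable genes less the 10 members, regression of mitochondrial percentage and cycle difference, smart local moving, resolution 0.6, components as in the methods: 14 for AT, 23 for BM and 20 for PB). Intervals were computed with SciPy 1.17.1, TMM factors with edgeR 4.0.16 and Scrublet scores with Scanpy 1.11.5. The arithmetic was tested on simulated data. No test between sources was possible, as each had 1 library.

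The members, gene lists and markers were chosen with earlier results of these data known. The text names the members, of each pathway list the 3 genes with the highest CPM and those at 10 CPM or more with a difference of at least 2 between 2 sources, and for members present in 5% or more of a source's cells the 3 genes with the highest correlation over cells among genes in at least 10% of cells. Other genes were named after their values were seen. The comparison of cells with and without a member ranks genes in at least 5% of cells by the difference of log2(CPM + 10). The values of 1 gene that this rule names are not reported here. No sequences are shown.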

Additional observations from a re-analysis of the deposited data

How the results depend on the processing

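Of the 3 counts of members past 2-fold, that between AT and BM was 1 in place of 0 when totals left out the genes above 5000 CPM (*TNFAIP6*, which then passed the limit of 10 CPM). Those between AT and PB and between BM and PB were 2 each in place of 0 with no limit on low genes (*PTGS2* and *HGF*). They remained 0 under the other alternatives run: thinning to 2500 UMIs, a lower limit of 500 UMIs, lifting the mitochondrial limit or the upper limit on UMIs, TMM or median-of-ratios factors, a pseudocount set to 10 CPM, averages over single cells, G1 cells alone, and leaving out the top 5% of cells by Scrublet score. The same held for 2 alternatives chosen after seeing the data, which left out barcodes kept in more than 1 library, or, with the limit of 500 UMIs, AT barcodes kept in another library. Leaving out every kept barcode that another library holds was run for AT against BM alone, since it leaves no PB cell. No paired analysis was possible because each source had 1 library.

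Of 400 recomputed log2 differences of members, 347 stayed within the counting interval of the reported value and 53 did not, and of 140 shares of cells 90 did and 50 did not. At a pseudocount of 1 CPM, *PTGS2* ranged over 1.24 to 1.59 for AT minus PB and 1.57 to 2.16 for BM minus PB, *HGF* over -2.82 to -1.92 and -2.38 to -2.02, and *TNFAIP6* over 0.83 to 1.30 for AT minus BM and -0.99 to -0.37 for BM minus PB. Signs differed between alternatives for *LGALS1* (-0.29 to 0.13), *PTGES* (-0.01 to 0.35) and *HGF* (-0.44 to 0.14) between AT and BM, for *LGALS3* between AT and PB (-0.04 to 0.03), for *IDO1* between BM and PB, and for *LIF* in every pair. Under other cluster settings, the ratio of the highest cluster to the whole source stayed within its interval in 64 of 75 recomputations, and for *TNFAIP6* in BM it ranged over 3.46 to 3.48. Without cell cycle regression it was 3.01 for *PTGS2* in BM and 2.53 in AT, against 1.59 and 1.39, and the cause was not tested.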
